A study of Mus musculus with 4 samples.

Results

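The XCL1, XCR1 and FLT3 axis links the lymphocytes of a tumour with one of its dendritic cell types. Xcl1 and Flt3l were followed in the NK and T cells that can make the ligands, and Xcr1, Flt3 and Batf3 in the dendritic cells that carry the receptors. These 5 genes were picked by symbol out of 27998 in the feature lists. They were read as raw unique molecular identifiers (UMIs, each standing for 1 captured RNA molecule) in mouse B16-GP33 melanomas, a subcutaneous melanoma line grown in C57BL/6 mice. The libraries came from mice given antibodies to both PD-1 and PSGL-1 (the combination), anti-PD-1 alone, anti-PSGL-1 alone or control IgG. PD-1 is an inhibitory receptor of T cells, and PSGL-1 is an adhesion molecule of leukocytes. Each antibody was given at 200 ug on days 8, 10 and 12, and tumours were taken on day 18. Live leukocytes, negative for propidium iodide and positive for CD45.2, were sorted and captured on the 10x Genomics Chromium platform. Each treatment had 1 library, and the labels used do not say how many mice each held. Differences between treatments therefore have no replicate check and no test, and every interval below covers counting error only.

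XCL1 is a chemokine of NK cells and activated CD8 T cells, and its receptor XCR1 is a hallmark of conventional type 1 dendritic cells (cDC1), which take up dead cells and present their antigens to CD8 T cells. FLT3 ligand binds the receptor FLT3 on dendritic cells and their precursors and sustains their production. BATF3 is a transcription factor that cDC1 need to develop and to keep their identity. In mouse melanoma, NK cells are known as a source of both ligands that draws in and feeds cDC1.

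Xcl1 and Xcr1 make up the ligand and receptor pair whose split between lymphocytes and cDC1 is described first, and the 250 bases before their annotated starts are given here with the letters of 5 motifs searched. The bases come from RefSeq on GRCm38.p6, from chr1:164935523-164935772 and chr9:123862030-123862279, both on the minus strand and written 5′ to 3′. Capitals mark every match, on either strand.
Xcl1: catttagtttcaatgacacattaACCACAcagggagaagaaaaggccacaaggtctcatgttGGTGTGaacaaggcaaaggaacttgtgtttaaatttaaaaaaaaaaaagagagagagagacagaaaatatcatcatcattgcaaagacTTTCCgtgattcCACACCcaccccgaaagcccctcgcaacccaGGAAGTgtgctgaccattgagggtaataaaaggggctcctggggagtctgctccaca
Xcr1: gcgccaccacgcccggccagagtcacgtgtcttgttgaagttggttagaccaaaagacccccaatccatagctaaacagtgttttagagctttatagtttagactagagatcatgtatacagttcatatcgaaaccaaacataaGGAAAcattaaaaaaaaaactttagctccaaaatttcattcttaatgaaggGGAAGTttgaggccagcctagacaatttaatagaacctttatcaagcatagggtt
The Xcl1 stretch holds T-box letters (GGTGTG) at -188 and, as CACACC on the reverse strand, at -88, counted back from the start. T-box factors include EOMES and T-bet of NK and CD8 T cells. These letters occur in 16.3% of 32851 mouse promoter stretches of the same length. It also holds RUNX letters (TGTGGT, read as ACCACA) at -227, which 14% of promoters hold, and NFAT letters (GGAAA, read as TTTCC) at -100, which 55.6% hold. The Xcr1 stretch holds NFAT letters at -106 and no T-box or RUNX letters. Both stretches hold ETS letters (GGAAGT), at -57 in Xcl1 and at -55 in Xcr1, as do 19.7% of promoters. Neither holds the AP-1 letters (TGANTCA, in 6.75% of promoters). No 2 of the matches overlapped. A match describes letters and shows no binding.

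Xcl1 (ENSMUSG00000026573) lies at chr1:164931644-164935527 with 3 exons, and Xcr1 (ENSMUSG00000060509) at chr9:123852315-123862029 with 2 exons, in GENCODE M21 on GRCm38. Flt3 (ENSMUSG00000042817) lies at chr5:147330741-147400489 with 24 exons, and Batf3 (ENSMUSG00000026630) at chr1:191097847-191108945 with up to 4 exons. An antisense gene, Gm26597, overlaps Flt3 on the other strand and is in the feature lists. The feature named Flt3l (ENSMUSG00000089989) is called Gm45713 in GENCODE M21. It spans chr7:45125922-45136231 with 13 exons, overlaps Rpl13a on the same strand, and takes in most of the locus that M21 itself calls Flt3l. How reads of the shared stretches were assigned is not given in the sources used here, so every Flt3l value below is that of the feature so named.

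The filters left 4228, 5019, 6492 and 8748 cells in the combination, anti-PD-1, anti-PSGL-1 and IgG libraries, with median UMIs per cell of 8392, 6252, 6164 and 3675 in that order. The IgG cells were the shallowest. Pairs of libraries shared 5 to 12 barcodes among kept cells, 56 in all. A cluster of 1161 cells that stayed unnamed was 94.5% IgG cells, so the IgG library stood apart there. It was led by Cd209a and Clec10a, as the cDC2-like class was, and by the division gene Ube2c, yet the T cell gene Cd3d was seen in 70.6% of unnamed cells. No named class includes it. The cDC1-like class was formed without the 5 genes. It held 44, 54, 157 and 221 cells in the combination, anti-PD-1, anti-PSGL-1 and IgG libraries, or 1.04%, 1.08%, 2.42% and 2.53% of kept cells. Clec9a averaged 197 CPM (UMIs per 1e6 UMIs of all genes in the class), Naaa 1435 and Wdfy4 566 in it. Against these cDC1 markers, the cDC2 marker Sirpa was at 1.5 and the macrophage marker C1qa at 5.06 CPM. The NK-like class had 245, 502, 417 and 793 cells in the combination, anti-PD-1, anti-PSGL-1 and IgG libraries. Ncr1 was seen in 58.9% and Cd3e in 2.71% of them. CD8 T-like cells numbered 1692, 1116, 1355 and 1368 in the same libraries.

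Ligand and receptor transcripts lay in separate classes. Xcl1 was highest in NK-like cells, at 752 to 1322 CPM over the 4 libraries, and that range lay above every other class. A group from the T and NK clustering that met no CD4 or CD8 rule ("other T" cells) followed at 188 to 475 CPM, and CD8 T-like cells came after them at 43.8 to 136.8 CPM. The unnamed cells lay between 61.2 and 154 CPM in 3 libraries. Conventional CD4 T-like cells lay between 3.62 and 38.0 CPM, below the CD8 T-like range. All dendritic and myeloid classes had medians under 20 CPM, though 1 library of migratory dendritic-like cells reached 52.6 CPM from 17 UMIs. The cDC1-like cells had 0 Xcl1 UMIs in the combination and anti-PD-1 libraries, where 3 counts would be 4.69 and 4.61 CPM. They had 3.98 CPM in the anti-PSGL-1 library and 1.97 CPM in the IgG library.

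Xcr1 ran the other way. It reached 334 to 500 CPM in cDC1-like cells, and no class with 20 or more cells in at least 2 libraries passed 6.92 CPM apart from the unnamed cells. NK-like cells held 1 Xcr1 UMI in all, in the IgG library. The cDC1-like cells, 1.04% to 2.53% of cells, held 87.9%, 91.0%, 94.8% and 86.7% of the Xcr1 UMIs of the combination, anti-PD-1, anti-PSGL-1 and IgG libraries. The unnamed cells held a further 10.6% in the IgG library and at most 0.135% in the others.

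Flt3 was shared by the dendritic classes, and Batf3 was not held to them. Flt3 levels were 125 to 170 CPM in cDC1-like cells, 89.7 to 142 CPM in migratory dendritic-like cells and 87.9 to 106 CPM in plasmacytoid dendritic-like cells over libraries with at least 20 cells. Neighbours in that order overlapped. The cDC2-like cells lay lower, at 19.7 to 34.9 CPM, and NK-like and regulatory T-like cells were at or near 0. Batf3 was highest in migratory dendritic-like cells at 216 to 254 CPM, a range that overlapped the 144 to 234 CPM of cDC1-like cells. Plasmacytoid dendritic-like cells, which carried Flt3, held Batf3 at 0 CPM in the anti-PD-1 library and 1.10 CPM in the IgG library. Xcr1 was at most 6.92 CPM in the migratory cells, so the dendritic class with the highest Batf3 carried almost none of the cDC1 receptor.

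**Figure D1:**
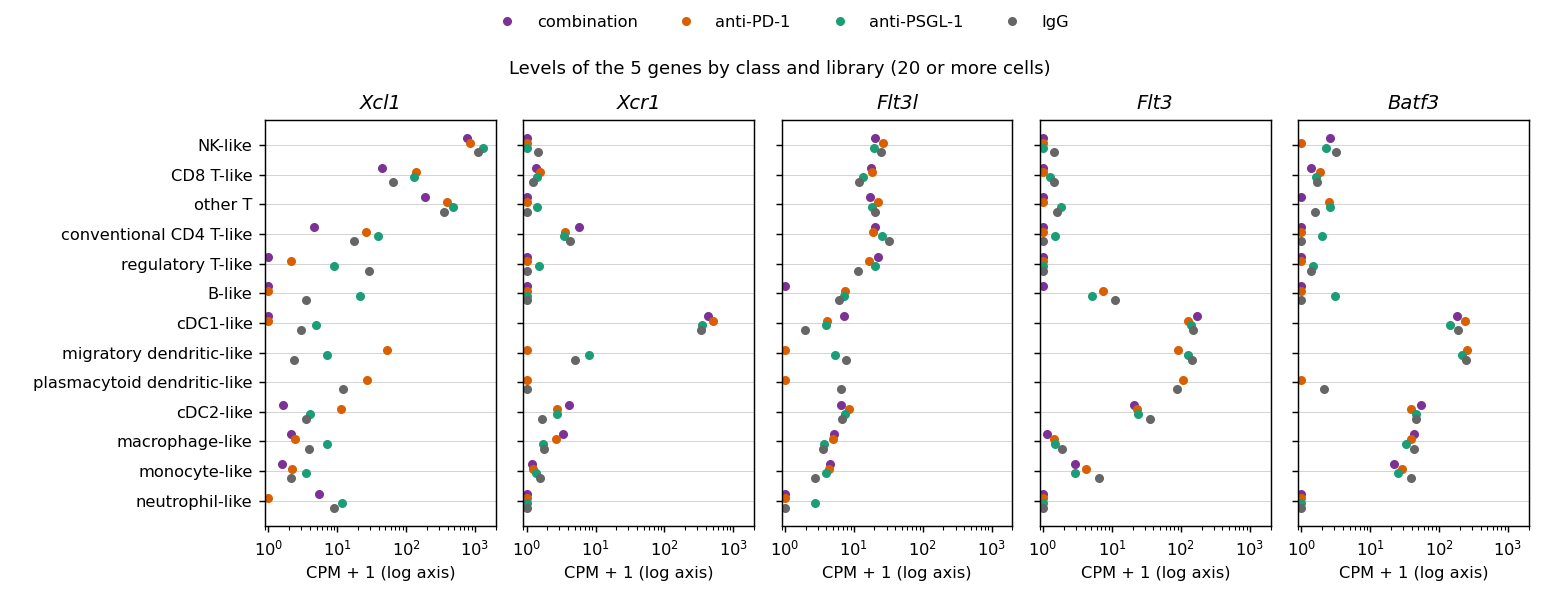
Level of each gene (CPM + 1, log axis) in each class, 1 point per library with at least 20 cells of the class. Xcl1 peaks in NK-like cells at 752 to 1322 CPM and Xcr1 in cDC1-like cells at 334 to 500 CPM, while Flt3 and Batf3 are spread over several dendritic classes.

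Xcl1 in NK-like cells was 752, 831, 1322 and 1089 CPM in the combination, anti-PD-1, anti-PSGL-1 and IgG libraries. It was lowest with the combination and highest with anti-PSGL-1, and the 4 Poisson intervals overlapped only between combination (714 to 792) and anti-PD-1 (791.8 to 871). The combination stood at 0.691 times IgG (exact 95% interval 0.647 to 0.738), anti-PD-1 at 0.763 times (0.717 to 0.812) and anti-PSGL-1 at 1.21 times (1.15 to 1.28). None passed the 1.5-fold used here to call a difference, so 0 of the 2 ligands were called in NK-like cells. For all genes with at least 50 UMIs in the pair of libraries, 17.6%, 8.26% and 12.5% passed it in the combination, anti-PD-1 alone and anti-PSGL-1 alone comparisons. The combination over anti-PSGL-1 did pass, at 0.569 (0.534 to 0.606), where 11.9% of genes did. With each cell thinned to 2000 UMIs, 46.1%, 45.4%, 54.7% and 55.0% of NK-like cells carried Xcl1 in the combination, anti-PD-1, anti-PSGL-1 and IgG libraries, against 0.329%, 0.218%, 0.557% and 0.386% of macrophage- and monocyte-like cells, which should lack it. Without thinning the NK-like shares were 63.7%, 55.6%, 68.6% and 57.5%. Thinning left out 0, 17, 13 and 198 shallower NK-like cells in the combination, anti-PD-1, anti-PSGL-1 and IgG libraries. Median UMIs were 5947, 3540, 4823 and 2491 in the NK-like cells and 8082, 6279, 6693 and 4699 in those myeloid cells.

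Within the NK-like class the transcripts were unevenly held. Of the Xcl1 UMIs, 50% came from 14, 43, 30 and 54 cells in the combination, anti-PD-1, anti-PSGL-1 and IgG libraries. NK-like cells with Mki67 or Top2a UMIs, markers of division, had 565, 623, 1206 and 1152 CPM of Xcl1 in the same libraries, and those without had 872, 886, 1400 and 1076 CPM. The combination and anti-PD-1 libraries were thus lower in both kinds of cell. Dividing cells were 25.7%, 15.5%, 25.7% and 9.84% of the class in that library order, and their part in the difference was not tested.

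CD8 T-like cells showed another order. Xcl1 was 43.8, 136.8, 130.2 and 63.6 CPM in the combination, anti-PD-1, anti-PSGL-1 and IgG libraries. Both single antibodies were above IgG, and the combination was below it. Relative to IgG, the combination stood at 0.689 times (0.620 to 0.766), anti-PD-1 at 2.15 times (1.95 to 2.37) and anti-PSGL-1 at 2.05 times (1.86 to 2.26). The combination over anti-PD-1 was 0.320 (0.295 to 0.347) and over anti-PSGL-1 0.336 (0.310 to 0.365). Both of these passed 1.5-fold, where 6.12% and 11% of genes did. The combination's value below IgG depended on the cells counted: without cells holding Mki67 or Top2a it was 1.15, and without the cluster led by Ccl3 and Serpine2 it was 0.377. The same omission of that cluster, chosen after the data were seen, took the anti-PD-1 ratio to 1.43, under the 1.5-fold line.

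**Figure D2:**
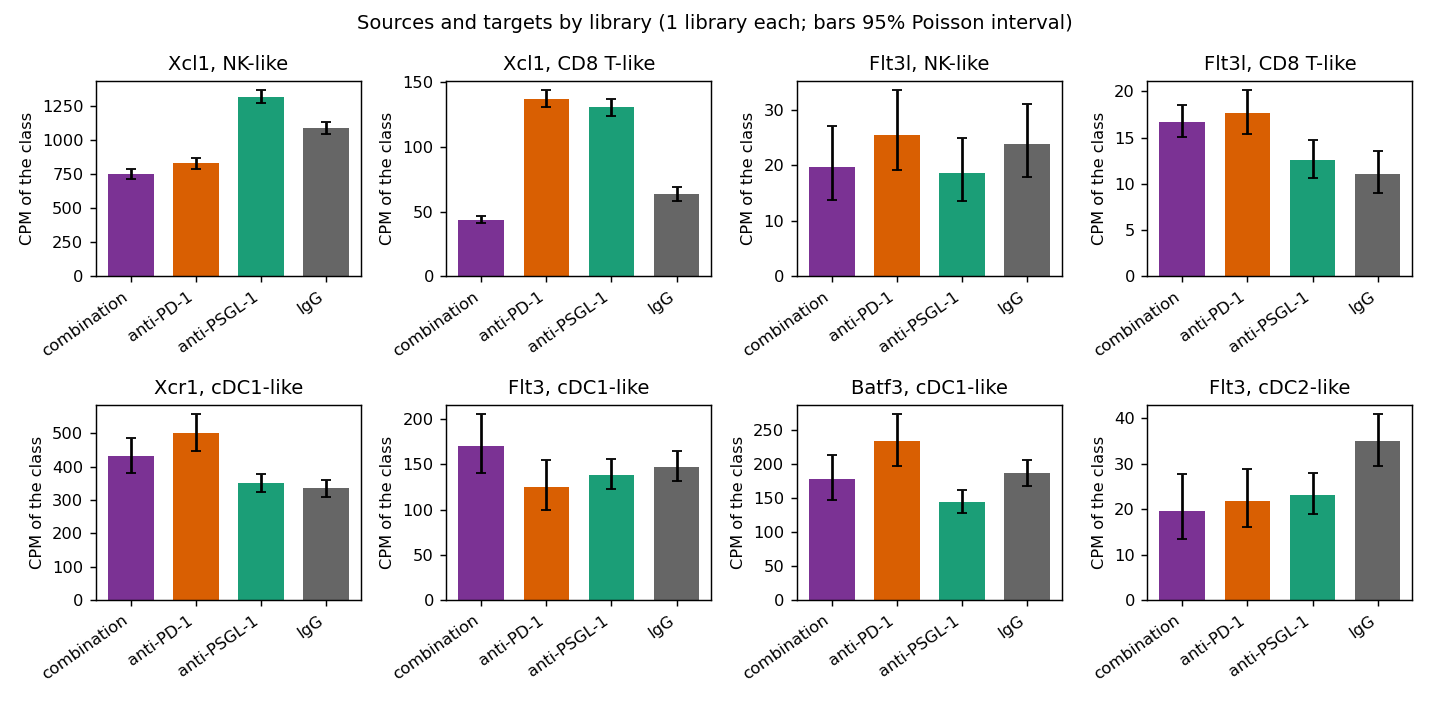
Level (CPM of the class) of the ligands in NK-like and CD8 T-like cells and of the receptors and Batf3 in dendritic classes, 1 bar per library with its 95% Poisson interval. Xcl1 in CD8 T-like cells stands at 43.8 CPM with the combination and at 136.8 and 130.2 CPM with anti-PD-1 alone and anti-PSGL-1 alone, against 63.6 CPM with IgG.

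Very few CD8 T-like cells made up these totals. Cells with 10 or more Xcl1 UMIs numbered 11 of 1692, 33 of 1116, 27 of 1355 and 14 of 1368 in the combination, anti-PD-1, anti-PSGL-1 and IgG libraries. They held 85.3%, 89.9%, 78.9% and 51.0% of the class's Xcl1 UMIs. In the combination library 2 cells held 50% of the UMIs, and 1 of them alone had 361. The ratios of CD8 T-like cells are therefore those of a handful of cells, and the UMI interval does not cover which cells were captured. Counted by cells thinned to 2000 UMIs, the share with Xcl1 was 1.74% (1.17 to 2.48) in the combination library and 4.83% (3.64 to 6.27) in the anti-PD-1 library. It was 6.03% (4.81 to 7.45) in the anti-PSGL-1 library, against 4.81% (3.72 to 6.11) in the IgG library. Unthinned, the shares were 4.43%, 8.6%, 11.7% and 8.26% in the combination, anti-PD-1, anti-PSGL-1 and IgG libraries. By the thinned share the combination alone stood apart, and the intervals of the other 3 libraries overlapped.

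The CD8 T-like cluster led by Ccl3, Serpine2, Nrn1 and Ifng carried most of the Xcl1. It held 83.9%, 81.6%, 59.6% and 65.2% of the class's Xcl1 UMIs in the combination, anti-PD-1, anti-PSGL-1 and IgG libraries. Its own level was 152, 392, 838 and 413 CPM in those libraries, so it was lowest with the combination. Yet it was largest there, at 422 cells, with 355 in the anti-PD-1, 120 in the anti-PSGL-1 and 127 in the IgG library. The cluster led by the granzyme genes Gzmf and Gzme, with 220 and 168 cells in the combination and anti-PD-1 libraries, had 15.8 and 39.8 CPM. A dividing cluster led by Ube2c had 3.82, 48.2, 60.1 and 25.3 CPM in the combination, anti-PD-1, anti-PSGL-1 and IgG libraries.

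**Figure D3:**
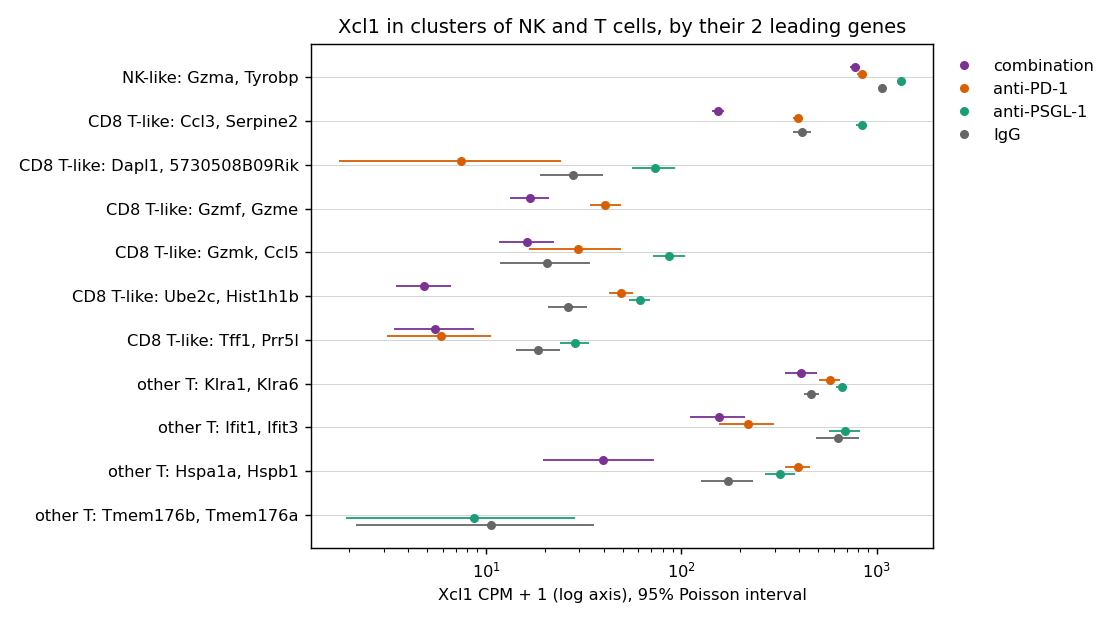
Xcl1 level (CPM + 1, log axis, 95% Poisson interval) in each cluster of NK-like, CD8 T-like and other T cells with at least 100 cells, 1 point per library with at least 20 cells of the cluster. The cluster led by Ccl3 and Serpine2 is the highest of the CD8 T-like clusters, at 152, 392, 838 and 413 CPM in the combination, anti-PD-1, anti-PSGL-1 and IgG libraries.

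Over all libraries, the 85 CD8 T-like cells with 10 or more Xcl1 UMIs can be set against the 5088 with none, as a description of cells chosen by their Xcl1. The Xcl1-rich cells had 916 CPM of Ccl1, a T cell chemokine, against 5.74 CPM in the cells without. Csf2, which encodes GM-CSF, was at 331 against 2.95 CPM. Ifng, the interferon of cytotoxic lymphocytes, was at 3626 against 265 CPM over all libraries, but in the anti-PSGL-1 library it was at 224 against 158 CPM. There, after thinning, 12.5% of Xcl1-positive and 18.2% of Xcl1-negative CD8 T-like cells carried Ifng, while in the combination, anti-PD-1 and IgG libraries the Xcl1-positive cells had the higher share. Tnfsf11, which encodes RANKL, was at 106.8 against 4.69 CPM, and Lta, which encodes lymphotoxin alpha, at 38.1 against 1.54 CPM. Ccl5, the chemokine of effector CD8 T cells, went the other way at 803 against 6497 CPM. Cd8a was close in both, at 723 against 751 CPM, and the NK receptor gene Klrb1c was at 1.70 against 0.762 CPM, far below the 340 CPM of NK-like cells. With the members allowed among the variable genes, a cluster led by Csf2 and Ccl1 formed. Cd8a or Cd8b1 was seen in 71% and Cd4 in 30.9% of its cells. It had 22, 30, 66 and 44 cells in the combination, anti-PD-1, anti-PSGL-1 and IgG libraries, of which 12, 25, 29 and 40 were CD8 T-like here. It held 739, 1138, 1037 and 332 Xcl1 UMIs in that order. The members could shape that clustering, so the cluster's Xcl1 content is given as a description only. Median UMIs were 12108 in the Xcl1-rich CD8 T-like cells and 8092 in those without Xcl1. In NK-like cells the same split gave a like contrast for Ccl5, at 3362 CPM in the 238 rich cells against 10435 CPM in the 780 without, and for Ccl1, at 134.6 against 25.8 CPM.

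The other T cells, the second class for Xcl1, had 188, 386, 475 and 355 CPM in the combination, anti-PD-1, anti-PSGL-1 and IgG libraries. The combination stood at 0.530 times IgG (0.443 to 0.631), anti-PD-1 at 1.09 times and anti-PSGL-1 at 1.34 times, and 19.6%, 17.1% and 8.25% of genes passed 1.5-fold in these comparisons. A cluster led by Klra1, Klra6 and Klra7 held 69.9%, 50.4%, 78.3% and 81.6% of it in the combination, anti-PD-1, anti-PSGL-1 and IgG libraries. These are genes of the Ly49 receptor family better known from NK cells. It made up 34.5%, 49.6%, 63.4% and 68.3% of the class's cells, so the make-up of the class differed between libraries, and the part of this in the ratios was not tested. That cluster had 409, 573, 660 and 462 CPM in the combination, anti-PD-1, anti-PSGL-1 and IgG libraries. A small cluster of 48 cells led by the myeloid genes Lyz2 and Il1b was also in the class and held 0, 27, 1 and 2 of its Xcl1 UMIs in that library order. Xcl1 was thus lowest with the combination in NK-like, CD8 T-like and other T cells, each taken whole, while CD8 T-like cells without Mki67 or Top2a had 99.1 CPM with the combination and 86.0 CPM with IgG. Regulatory T-like cells held 0, 1, 16 and 71 Xcl1 UMIs in the same libraries, or 0, 1.10, 7.94 and 27.9 CPM. The 16 and the 71 UMIs came from 9 cells each. Unthinned, the share of regulatory T-like cells with Xcl1 was 3.69% with anti-PSGL-1 and 1.89% with IgG. After thinning it was 1.28% (3 of 234 cells) and 1.41% (6 of 427 cells), with overlapping intervals.

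The shares of Xcl1 by source differed between libraries. NK-like cells held 55.9%, 41.9%, 51.4% and 57.7% of all Xcl1 UMIs in the combination, anti-PD-1, anti-PSGL-1 and IgG libraries. CD8 T-like cells held 37.0%, 42.9%, 25.6% and 13.0%, higher in every treated library than with IgG. They were 40%, 22.2%, 20.9% and 15.6% of kept cells there, and 1 cell held 361 of their 940 UMIs with the combination. Other T cells held 163, 522, 1160 and 603 UMIs in that library order, against 555 in CD8 T-like cells with IgG. In the anti-PD-1 library the CD8 T-like total, 1736 UMIs, was close to the 1694 of NK-like cells. The unnamed cells held 11.9% in the IgG library and at most 0.917% in the others. Over all kept cells Xcl1 was 60.5, 109, 131 and 105 CPM in the combination, anti-PD-1, anti-PSGL-1 and IgG libraries.

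**Figure D4:**
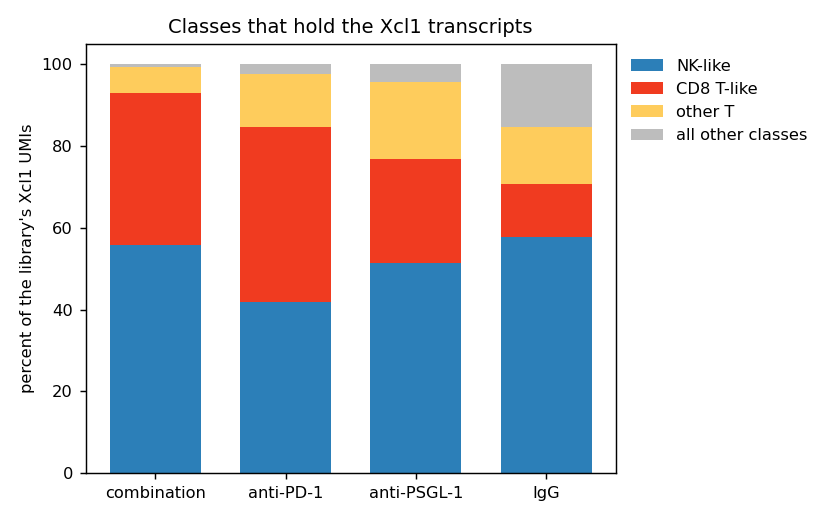
Share of each library's Xcl1 UMIs (percent) held by NK-like, CD8 T-like, other T and all remaining cells. CD8 T-like cells hold 37.0%, 42.9% and 25.6% in the combination, anti-PD-1 alone and anti-PSGL-1 alone libraries, against 13.0% in the IgG library. The shares hold both the number of cells and the level per cell.

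Flt3l was low and spread over the T and NK classes. B-like cells had 0 to 6.43 CPM from at most 3 UMIs a library, with upper limits of 18.0 to 35.8 CPM that reach T and NK levels. Flt3l was 16.7, 17.7, 12.6 and 11.1 CPM in the CD8 T-like cells of the combination, anti-PD-1, anti-PSGL-1 and IgG libraries. The combination and anti-PD-1 libraries were the higher pair. They were so too in macrophage- and monocyte-like cells, at 3.86, 3.79, 2.80 and 2.32 CPM in that library order. In conventional CD4 T-like cells they were the lower pair, at 19.3, 17.9, 24.3 and 31.4 CPM, from 7 to 48 UMIs a library. Relative to IgG, the combination stood in CD8 T-like cells at 1.505 times (1.20 to 1.90), anti-PD-1 at 1.59 times (1.25 to 2.04) and anti-PSGL-1 at 1.13 times (0.874 to 1.48). Of the 2 members with 50 or more UMIs in CD8 T-like cells, 1 of 2 (Flt3l), 2 of 2 and 1 of 2 (Xcl1) passed 1.5-fold with the combination, anti-PD-1 alone and anti-PSGL-1 alone, where 10.3%, 10.5% and 4.18% of all genes did. The Flt3l calls were marginal: after thinning the ratios were 1.38 and 1.35 with the combination and anti-PD-1. The share of thinned CD8 T-like cells with Flt3l was 3.77%, 3.73%, 3.02% and 2.75% in the combination, anti-PD-1, anti-PSGL-1 and IgG libraries, against 0.461%, 1.05%, 0.743% and 0.386% of macrophage- and monocyte-like cells.

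In NK-like cells Flt3l was 19.6, 25.5, 18.6 and 23.8 CPM in the combination, anti-PD-1, anti-PSGL-1 and IgG libraries, and all 4 intervals overlapped. The ratios of 0.825 (0.528 to 1.28), 1.07 (0.718 to 1.60) and 0.782 (0.515 to 1.18) to IgG rest on 37 to 54 UMIs a library, and no difference was detectable at this depth. Conventional CD4 T-like, NK-like, other T, regulatory T-like and CD8 T-like cells followed each other in that order by median, from 21.8 down to 14.7 CPM, and each overlapped the next. No NK-like or CD8 T-like cell held more than 5 Flt3l UMIs, while single cells of these classes held up to 361 Xcl1 UMIs. The CD8 T-like cluster led by Gzmk and Ccl5 had 29.2, 26.6, 24.7 and 25.2 CPM in the combination, anti-PD-1, anti-PSGL-1 and IgG libraries. The one led by Dapl1 and Ccr7, with 15 cells in the combination library, had 16.0, 9.27 and 8.65 CPM with anti-PD-1, anti-PSGL-1 and IgG. CD8 T-like cells were 40%, 22.2%, 20.9% and 15.6% of kept cells in the combination, anti-PD-1, anti-PSGL-1 and IgG libraries. They held 70.5%, 55.2%, 35.8% and 28.7% of all Flt3l UMIs in the combination, anti-PD-1, anti-PSGL-1 and IgG libraries. NK-like cells held 7.27%, 12.8%, 10.5% and 16.0%. After thinning, 0 of 29, 0 of 53, 4 of 80 and 2 of 63 Xcl1-positive CD8 T-like cells carried Flt3l in the combination, anti-PD-1, anti-PSGL-1 and IgG libraries, too few to set against the 3.84%, 3.92%, 2.89% and 2.73% of Xcl1-negative cells.

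Xcr1, the receptor of XCL1, was 431, 500, 350 and 334 CPM in the cDC1-like cells of the combination, anti-PD-1, anti-PSGL-1 and IgG libraries. The libraries with anti-PD-1 stood highest. The combination stood at 1.29 times IgG (1.12 to 1.49), anti-PD-1 at 1.495 times (1.31 to 1.71) and anti-PSGL-1 at 1.05 times (0.941 to 1.17). None of the 3 members reached 1.5-fold in any of the 3 comparisons, where 14.7%, 16.4% and 9.08% of genes did with the combination, anti-PD-1 alone and anti-PSGL-1 alone. The anti-PD-1 value for Xcr1 lay at the line, and it was 1.55 when likely doublets were kept and 1.89 after thinning, where the combination reached 1.85. Flt3 also passed the line after thinning, at 1.65 with the combination and 0.653 with anti-PD-1. Thinned to 2000 UMIs, 50%, 60.4%, 40.9% and 35.1% of cDC1-like cells carried Xcr1 in the combination, anti-PD-1, anti-PSGL-1 and IgG libraries, against at most 0.218% of macrophage- and monocyte-like cells in any library. Unthinned shares of cDC1-like cells were 88.6%, 85.2%, 88.5% and 72.4%. The median cDC1-like cell had 14460, 12226, 12514 and 9511 UMIs in that library order. Over all libraries, dividing cDC1-like cells had less Xcr1, at 288 CPM (263 to 316), than those without Mki67 or Top2a, at 409 CPM (389 to 431). The dividing cells were lower in each library, with overlapping intervals in the combination and anti-PD-1 libraries, and in the IgG library they had 199 against 383 CPM.

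Flt3, the receptor tyrosine kinase, was 170, 125, 138 and 147 CPM in the cDC1-like cells of the combination, anti-PD-1, anti-PSGL-1 and IgG libraries. The combination was highest and anti-PD-1 lowest, with overlapping intervals of 140 to 205 and 98.9 to 155 CPM. Relative to IgG, the combination stood at 1.16 times (0.920 to 1.44), anti-PD-1 at 0.846 times (0.654 to 1.09) and anti-PSGL-1 at 0.939 times (0.795 to 1.11). Each interval takes in 1. After thinning they were 1.65, 0.653 and 1.15 with the combination, anti-PD-1 alone and anti-PSGL-1 alone, and the anti-PSGL-1 ratio was 1.16 when each cell weighed the same.

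Flt3 in cDC2-like cells was a different case. It was 19.7, 21.8, 23.1 and 34.9 CPM in the combination, anti-PD-1, anti-PSGL-1 and IgG libraries, lower with every antibody treatment than with IgG. The ratios were 0.564 (0.372 to 0.830), 0.625 (0.443 to 0.867) and 0.661 (0.511 to 0.853), and these comparisons share the IgG library. All 3 passed 1.5-fold, where 12.1%, 13.8% and 9.97% of genes did with the combination, anti-PD-1 alone and anti-PSGL-1 alone. After thinning, 5.11%, 5.45%, 4.59% and 6.70% of cDC2-like cells carried Flt3 in those libraries and IgG, in the order given, and those intervals overlapped. The unnamed cluster led by Cd209a and Clec10a held 10, 8, 46 and 1097 cells in the combination, anti-PD-1, anti-PSGL-1 and IgG libraries, and its Flt3 level was 22.4 CPM in IgG cells. With that cluster added to the cDC2-like cells, a setting chosen after the data were seen, Flt3 was 20.0, 21.2, 23.3 and 28.8 CPM. The ratios were then 0.695 (0.468 to 1.003), 0.737 (0.531 to 1.005) and 0.808 (0.647 to 1.005), and none passed 1.5-fold. Migratory dendritic-like cells showed 89.7 and 124 CPM with anti-PD-1 and anti-PSGL-1, against 142 CPM with IgG.

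Batf3, the transcription factor, was 178, 234, 144 and 187 CPM in the cDC1-like cells of the combination, anti-PD-1, anti-PSGL-1 and IgG libraries. It was highest with anti-PD-1 and lowest with anti-PSGL-1. The combination stood at 0.952 times IgG (0.765 to 1.18), anti-PD-1 at 1.25 times (1.03 to 1.51) and anti-PSGL-1 at 0.771 times (0.659 to 0.90). The 3 genes of cDC1-like cells thus had no common direction under treatment. With anti-PD-1, Xcr1 and Batf3 were above IgG while Flt3 was below it. All 3 were detected together in 68.2%, 53.7%, 57.3% and 43.4% of cDC1-like cells of the combination, anti-PD-1, anti-PSGL-1 and IgG libraries, and these shares were not thinned. Cells in which none of the 3 was seen numbered 0 of 44, 0 of 54, 2 of 157 and 20 of 221 in those libraries, of which the IgG cells were the shallowest.

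Batf3 transcripts were not held to dendritic cells. Macrophage- and monocyte-like cells held 63.8%, 62.8%, 38.2% and 33.9% of all Batf3 UMIs in the combination, anti-PD-1, anti-PSGL-1 and IgG libraries, at 33.7, 35.5, 29.5 and 41.4 CPM. They were 37.1%, 48.2%, 35.9% and 26.4% of kept cells there, so the shares hold cell numbers as well as the level. Among them the cluster led by Ccl8 and the complement genes C1qa and C1qc was highest over all libraries, at 87.6 CPM (79.5 to 96.2), and the cluster led by Arg1 and Inhba lowest, at 12.2 CPM (10.3 to 14.4). In macrophage-like cells Batf3 was 41.4, 38.3, 32.3 and 42.7 CPM in the combination, anti-PD-1, anti-PSGL-1 and IgG libraries. In monocyte-like cells it was 21.4, 27.4, 24.3 and 38.5 CPM in that order. The monocyte-like ratios of 0.556 (0.428 to 0.720) with the combination and 0.632 (0.495 to 0.807) with anti-PSGL-1 passed 1.5-fold, and 0.712 (0.550 to 0.920) with anti-PD-1 did not. In monocyte-like cells 8.47%, 14.3% and 8.87% of genes passed it with the combination, anti-PD-1 alone and anti-PSGL-1 alone. After thinning, 4.26%, 4.41%, 5.63% and 7.18% of monocyte-like cells carried Batf3 in the combination, anti-PD-1, anti-PSGL-1 and IgG libraries. The interval of each treated library overlapped that of IgG (5.41 to 9.31). Shares of thinned macrophage- and monocyte-like cells with Batf3 were 5.59%, 5.55%, 5.39% and 7.19% in the combination, anti-PD-1, anti-PSGL-1 and IgG libraries, while NK-like cells gave at most 0.408%.

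Source cells and ligand transcripts were also counted for each cDC1-like cell. There were 5.57, 9.30, 2.66 and 3.59 NK-like cells for each cDC1-like cell in the combination, anti-PD-1, anti-PSGL-1 and IgG libraries. CD8 T-like cells numbered 38.5, 20.7, 8.63 and 6.19 for each. Over all kept cells there were 57.7, 74.9, 39.6 and 19.4 Xcl1 UMIs, and 11.6, 7.52, 2.74 and 1.53 Flt3l UMIs, for each cDC1-like cell in those libraries. The libraries that received anti-PD-1 had the fewest cDC1-like cells, the denominator of every ratio here, and the 2 highest values of each ratio. The order of the ratios cannot be read apart from that denominator. The combination library held the fewest Xcl1 UMIs, at 2538 against 4045, 6219 and 4280 with anti-PD-1, anti-PSGL-1 and IgG. These are ratios of captured cells and UMIs after a CD45.2 sort and say nothing of numbers in the tumour. The IgG cells were also the shallowest.

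The genes most like each member over 50 sums of class and library, from 14 classes and 10041 genes, were found by Pearson's r on log2(CPM + 1). Libraries share depth and cells of one class share a cluster, so r is given only as a description. Xcl1 was closest to Samd3 (r = 0.90), Klra7 and Eomes. Eomes, the T-box factor of NK cells, was among the NK markers used to pick the T and NK clusters. Xcr1 was closest to Snx22 (0.91), which was among the markers used to name cDC1, Fam149a and Pianp. Flt3l was closest to Faah (0.85), Tnik and Ctla2b, Flt3 to Bcl2l14 (0.89), Tspan33 and Pkib, and Batf3 to Htr7 (0.96), Nostrin and Fnbp1l.

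Other chemokines and cytokines of the source cells were counted next. Of 16 listed genes, 7 had 50 or more UMIs in NK-like cells, and 0, 0 and 1 were higher and 1, 4 and 2 lower with the combination, anti-PD-1 alone and anti-PSGL-1 alone. Of all genes in these cells 17.6%, 8.26% and 12.5% passed, so the combination's count was no more than the background. Ccl4, a chemokine of activated lymphocytes, was at 233 CPM with the combination and 258 CPM with anti-PD-1, against 556 CPM with IgG (ratios 0.420 and 0.465). Ifng was at 142 CPM with anti-PSGL-1, against 70.1 CPM with IgG, a ratio of 2.02 (1.67 to 2.46). The list's median log2 ratio in NK-like cells was -0.28, -0.98 and -0.54 in the combination, anti-PD-1 alone and anti-PSGL-1 alone comparisons, against -0.08, -0.01 and -0.07 over all genes.

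In CD8 T-like cells 13, 14 and 13 of the 16 genes had the UMIs needed with the combination, anti-PD-1 alone and anti-PSGL-1 alone. With the combination 5 were higher and 3 lower, with anti-PD-1 7 and 1, and with anti-PSGL-1 2 and 1, where 10.3%, 10.5% and 4.18% of all genes passed. Ccl9, a CCR1 ligand, was at 124 CPM with the combination and 73.8 CPM with anti-PD-1, against 7.22 CPM with IgG. Csf2 was at 18.5 CPM with the combination, against 5.38 CPM with IgG, and Ccl1 at 9.79 against 41.2 CPM. By summed UMIs, Csf2 and Ccl1, both raised in the Xcl1-rich cells above, thus stood on opposite sides of IgG in that library. Few cells lie behind these sums. After thinning, Csf2 was seen in 9 of 1670 CD8 T-like cells with the combination and 5 of 1310 with IgG. Ccl1 was seen in 15 of 1670 and 15 of 1310. Il2 was at 7.64 CPM with anti-PD-1, against 1.15 CPM with IgG, and the inhibitory cytokine gene Il10 at 1.34 against 8.82 CPM. The median log2 ratio was 0.34, 0.47 and -0.08 in the combination, anti-PD-1 alone and anti-PSGL-1 alone comparisons, against 0.03, 0.01 and -0.03 over all genes.

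In cDC1-like cells 14.7%, 16.4% and 9.08% of all genes passed 1.5-fold with the combination, anti-PD-1 alone and anti-PSGL-1 alone, and the lists that follow are read against these shares. Of 9 chemokine receptors of dendritic cells, 4, 4 and 5 had the UMIs needed with the combination, anti-PD-1 alone and anti-PSGL-1 alone, and 0, 1 and 1 were higher and 2, 1 and 1 lower. Ccr7, which guides dendritic cells to lymph nodes, had 2 UMIs (3.12 CPM) with the combination, against 147 UMIs (72.4 CPM) with IgG, a ratio of 0.043 (0.0052 to 0.159). Cxcr3 was at 66.1 CPM with anti-PD-1, against 41.9 CPM with IgG. The receptors' median log2 ratio was -0.54, -0.14 and -0.06 in the combination, anti-PD-1 alone and anti-PSGL-1 alone comparisons, against 0.08, 0.03 and -0.03 over all genes.

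Of 19 dendritic cell transcription factors, 15, 15 and 16 had the UMIs needed with the combination, anti-PD-1 alone and anti-PSGL-1 alone, and 0, 6 and 2 were higher and 1, 1 and 0 lower. With anti-PD-1, Zbtb46, a factor of conventional dendritic cells, was at 63.1 CPM, against 26.6 CPM with IgG, a ratio of 2.37 (1.54 to 3.63). Jun, a possible partner of BATF3, was at 140.0 CPM with anti-PD-1 and 179.5 CPM with anti-PSGL-1, against 69.9 CPM with IgG. Irf8, the factor that acts with BATF3 in cDC1, was at 1676, 1706 and 1331 CPM with the combination, anti-PD-1 alone and anti-PSGL-1 alone, against 1273 CPM with IgG, and was not called. The median log2 ratio of the list was 0.15, 0.31 and 0.17 in the combination, anti-PD-1 alone and anti-PSGL-1 alone comparisons, against 0.08, 0.03 and -0.03 over all genes.

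Of 22 genes of FLT3 signalling and its regulators, 17, 17 and 19 had the UMIs needed with the combination, anti-PD-1 alone and anti-PSGL-1 alone, and 0, 2 and 0 were higher and 1, 0 and 1 lower, a smaller share than the background in each comparison. Socs1, an inhibitor of cytokine signalling, was at 73.8 CPM with anti-PD-1 and 18.9 CPM with anti-PSGL-1, against 35.9 CPM with IgG, so the single antibodies lay on opposite sides. Of 18 genes of secreted factors and costimulation, 9, 12 and 13 had the UMIs needed in the same 3 comparisons, and 0, 3 and 2 were higher and 3, 2 and 5 lower. Il12b, a subunit of interleukin 12, was at 66.1 CPM with anti-PD-1, against 21.7 CPM with IgG, a ratio of 3.05 (1.96 to 4.76). With anti-PSGL-1, Cxcl9, a ligand of CXCR3, was at 101.9 CPM, against 301 CPM with IgG, and Cxcl10 at 8.95 against 58.6 CPM. Ccl17 was at 27.8 CPM with anti-PSGL-1, against 3.45 CPM with IgG, from 56 and 7 UMIs. Of 18 genes of cross-presentation, 17 had the UMIs needed in each comparison, and 2, 1 and 0 were higher and 0, 0 and 1 lower with the combination, anti-PD-1 alone and anti-PSGL-1 alone, again under the background. In that order the median log2 ratio was 0.17, 0.13 and -0.0036 for FLT3 signalling, -0.13, 0.28 and -0.32 for secreted factors and costimulation, and 0.37, 0.21 and -0.20 for cross-presentation, beside the all-gene medians above.

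Prostaglandin E2 is known from mouse melanoma to restrain NK cells and their supply of cDC1 ligands. Of 10 genes of its synthesis, breakdown and receptors, 7 had the UMIs needed in macrophage- and monocyte-like cells, and 0, 1 and 0 were higher and 2, 1 and 1 lower with the combination, anti-PD-1 alone and anti-PSGL-1 alone. In those cells 8.15%, 14.4% and 5.61% of all genes passed 1.5-fold. Ptgs2, the inducible cyclooxygenase, was at 881 CPM with anti-PD-1, against 536 CPM with IgG, a ratio of 1.64 (1.59 to 1.69). Ptges, a synthase of prostaglandin E2, was at 4.69 CPM with the combination and 4.45 CPM with anti-PSGL-1, against 8.40 CPM with IgG. In cDC1-like cells 2 of the 10 genes had the UMIs needed and neither passed 1.5-fold in any of the 3 comparisons.

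In cDC2-like cells, taken without the unnamed cluster, 12.1%, 13.8% and 9.97% of all genes passed 1.5-fold with the combination, anti-PD-1 alone and anti-PSGL-1 alone. Of the 9 chemokine receptors 7 had the UMIs needed in each comparison, and 0, 1 and 0 were higher and 2, 2 and 1 lower with the combination, anti-PD-1 alone and anti-PSGL-1 alone. Cx3cr1, the fractalkine receptor, was lower in each, at 8.62, 12.5 and 10.2 CPM with the combination, anti-PD-1 alone and anti-PSGL-1 alone, against 29.2 CPM with IgG. All 19 transcription factors had the UMIs needed, and 2, 2 and 0 were higher and 1, 0 and 0 lower, near or under the background. Batf2, a relative of Batf3 induced by interferons, was at 77.5 and 84.2 CPM with the combination and anti-PD-1, against 27.5 CPM with IgG. Irf8 was at 280.0 and 349.6 CPM with the combination and anti-PD-1, against 158.5 CPM with IgG. All 22 FLT3 signalling genes had the UMIs needed, and 2, 2 and 2 were higher and 1, 0 and 1 lower, again near or under it. Socs1 was at 162, 214 and 45.1 CPM with the combination, anti-PD-1 alone and anti-PSGL-1 alone, against 73.8 CPM with IgG.

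Of the 18 genes of secreted factors and costimulation, 12, 14 and 14 had the UMIs needed in cDC2-like cells, and 5, 8 and 4 were higher and 0, 1 and 3 lower with the combination, anti-PD-1 alone and anti-PSGL-1 alone. Of all genes in these cells 12.1%, 13.8% and 9.97% passed 1.5-fold in those comparisons. Ccl17, a ligand of CCR4, was at 97.2 CPM with the combination and 414 CPM with anti-PSGL-1, against 45.6 CPM with IgG. All 18 cross-presentation genes had them, and 2, 4 and 0 were higher and 0, 1 and 1 lower, above the background with anti-PD-1 only. Tap1, a peptide transporter subunit, was at 396 and 476 CPM with the combination and anti-PD-1, against 257 CPM with IgG. Of the 10 prostaglandin genes 4, 5 and 4 had them, and 0, 1 and 0 were higher and 0, 1 and 0 lower.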

How the data were processed

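Per the labels, CD45.2-positive cells were sorted from dissociated tumours. The authors deposited raw UMI counts per gene and barcode. Cell Ranger 3.1.0, FastQC and the mm10 build are named, per the submitters' processing notes. Which gene models were counted is not given in the sources used here. Groups came from the treatment labels.

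Cells were kept if they had 300 or more genes, no more than 60000 UMIs and up to 10% of UMIs from mitochondrial genes. Scrublet's own threshold marked 42, 84, 0 and 1 cells in the combination, anti-PD-1, anti-PSGL-1 and IgG libraries and did not work, so the top scorers, 0.8% per 1000 cells, were removed (154, 219, 377 and 717). Leiden clustering (scanpy 1.11.5, leidenalg 0.10.2, Python 3.11.15) used 2000 variable genes without the 5 members, 30 components and 20 neighbours at resolution 1. T and NK cells were clustered again. Classes were named from marker lists, at thresholds set after the data were seen (CD8 T-like: Cd8a or Cd8b1 in 60% and Cd4 in at most 20% of cells. NK-like: Ncr1 and Klrb1c in 50%). Clusters of the T and NK clustering that met no CD4 or CD8 rule were kept as other T. No batch correction was applied.

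Counts were summed by class and library and scaled to CPM. Intervals are exact at 95% (Poisson for CPM, conditional for ratios, Clopper-Pearson for shares). A gene was called at 1.5-fold with 50 or more UMIs in the pair of libraries, which is a fold rule and no test. From each list, genes were named among up to 2 each way per comparison, ranked by the interval bound nearest 1. Not every gene that this rule allows is reported here. Irf8 in cDC1-like cells was chosen after its values were seen. Ratios of the members in other T, cDC2-like and monocyte-like cells were not among the 21 planned ratios to IgG. Alternatives were another gene minimum, doublets kept, equal cell weights, thinning, marker gates, dividing cells left out and members allowed among variable genes. The code for ratios and intervals was run on simulated Poisson counts, which have the spread that the intervals assume. That run checks the code only and says nothing of spread between cells or mice. The members and lists were chosen with earlier results of these data known.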

Additional observations from a re-analysis of the deposited data

Results flagged for a closer look

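By summed UMIs, Xcl1 under anti-PD-1 went opposite ways in its 2 main sources. The ratio of the anti-PD-1 to the IgG library was 0.763 in NK-like cells, which did not pass 1.5-fold, and 2.15 in CD8 T-like cells. Neither interval takes in 1, but both cover counting error only. The share of thinned CD8 T-like cells with Xcl1 was 4.83% with anti-PD-1 and 4.81% with IgG, so the rise was not seen by that measure. With 1 library per treatment the difference between the classes was not tested. The CD8 T-like ratio comes mostly from 33 cells of the anti-PD-1 library and 14 of the IgG library that hold most of the UMIs. That ratio was 1.43 without the cluster led by Ccl3 and Serpine2, a setting chosen after the data were seen.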

How the results depend on the processing

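No paired analysis was possible because each treatment has 1 library. All 21 ratios in NK-like, CD8 T-like and cDC1-like cells moved by less than their interval when likely doublets were kept or when 500 genes per cell were required. Values are ratios to IgG, and where 3 are given they are combination, anti-PD-1 alone and anti-PSGL-1 alone. Weighing each cell the same moved Xcl1 in NK-like cells with anti-PD-1 to 0.822, Xcl1 in CD8 T-like cells to 0.859, 2.59 and 1.59, and Flt3 in cDC1-like cells with anti-PSGL-1 to 1.16. Thinning moved Xcl1 in CD8 T-like cells to 0.852, 2.70 and 1.69, Flt3l in NK-like cells with anti-PD-1 to 0.692, Xcr1 to 1.85 and 1.89 with the combination and anti-PD-1, and Flt3 in cDC1-like cells to 1.65, 0.653 and 1.15. Without Mki67 or Top2a cells, Xcl1 in NK-like cells was 0.811, 0.823 and 1.30, and in CD8 T-like cells 1.15 and 3.18 with the combination and anti-PD-1. With the members among the variable genes, a cluster led by Csf2 and Ccl1, with Cd4 in 30.9% of cells, left the CD8 T-like class, and Xcl1 was 0.355 and 1.83 with the combination and anti-PD-1. Without the cluster led by Ccl3 and Serpine2, added after the data were seen, Xcl1 was 0.377, 1.43 and 2.36. Marker gates moved Xcl1 with the combination to 0.787 in NK-like and 0.867 in CD8 T-like cells. The cDC1 gate took 327, 317, 431 and 547 cells in the combination, anti-PD-1, anti-PSGL-1 and IgG libraries, of which 42, 48, 137 and 189 were cDC1-like, so it is mostly other cells. There Xcr1 was 0.487, 0.635 and 0.844, Flt3 0.447, 0.398 and 0.701, and Batf3 0.528 and 0.764 with the combination and anti-PD-1. With the unnamed cluster led by Cd209a added after the data were seen, Flt3 in cDC2-like cells was 0.695, 0.737 and 0.808, inside the intervals without it but no longer past 1.5-fold.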
